A study of Mus musculus with 8 samples.

Results

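The genes described here are those that copy DNA and mark entry into S phase, 46 genes listed by name for their textbook role. All 46 were matched to a named transcript cluster, the array's unit for 1 gene, out of 19938 genes tested. Their transcripts were read on 8 Affymetrix arrays, each holding RNA of naive CD4 T cells of the mouse, the helper T cells that have not yet met antigen. Of these, 4 arrays came from wild-type mice and 4 from mice of the genotype T cell-specific conditional Bcl6-/-, called Bcl6 cKO here, in which the gene of the transcriptional repressor Bcl6 is labelled as deleted in T cells. Before RNA isolation the cells of both genotypes were stimulated through CD3 and CD28 by antibodies for 24 h, so unstimulated cells are not part of the comparison. A tag, Tf0, is also attached to the samples without an explanation. The sources used here leave out the driver of the deletion and the strain, age and sex of the mice. They do not say that each array holds RNA of a separate mouse either. The p-values then cover only the spread between these arrays, which may be technical in part. Signal of Y-linked genes, given below, was high on some arrays of each group and low on others. The arrays of a group therefore did not all hold RNA of the same mouse.

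A resting T cell holds few replication proteins and makes them anew when it is activated. The origin recognition complex, Cdc6 and Cdt1 load the Mcm2-7 helicase onto DNA, a step called licensing that geminin (Gmnn) limits to once per cycle. Cdc45 and the GINS complex then turn the helicase on, the primase and the DNA polymerases copy both strands, and the clamp Pcna, loaded by the Rfc complex, holds the polymerases on the template. Cyclin E and the E2F transcription factors time this program: once the retinoblastoma proteins are phosphorylated, E2F factors drive the genes of licensing, replication and nucleotide supply together.

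Because E2F factors are known to bind many of these genes, the RefSeq promoters (build GRCm38.p6) were searched for the E2F motif. The 250 bases before each listed start were read on both strands for any of 4 spellings, namely TTCCCGC or TTCGCGC or TTGCCGC or TTGGCGC, overlaps allowed. The table lists promoters for 36 of the 46 genes. Of these, 17 (47.2%) held the motif, against 2435 of 27025 genes (9.01%) in the whole table. The letters are rich in G and C, and so are these promoters, with a median GC content of 60.4% against 52.4% over all listed promoters. Among the other gene lists of the cell cycle, the motif was found for 35.4% of 65 other replication genes, 9.52% of 21 mitosis genes and 12% of 25 histone genes. The median GC content of those lists was 63.4%, 60.6% and 44.8%, in that order. A motif of the kind that Bcl6 is known to bind, spelled TTCCTNGAA, was found for 1 of the 36 genes (2.78%), the DNA ligase gene Lig1, and for 1.54% of all genes. These are matches of letters and not measured binding. In the role of G1/S cyclins and E2F factors the listed promoters, those of E2f1, Ccne1 and E2f2, held no E2F motif, so none is shown. For 8 members with the motif whose array values are described here, 1 for each other role, the 250 bases are shown. Sequences read 5′ to 3′ on the gene's strand, with the E2F motifs in capitals.
Orc1 (chr4:108579204-108579453, plus strand): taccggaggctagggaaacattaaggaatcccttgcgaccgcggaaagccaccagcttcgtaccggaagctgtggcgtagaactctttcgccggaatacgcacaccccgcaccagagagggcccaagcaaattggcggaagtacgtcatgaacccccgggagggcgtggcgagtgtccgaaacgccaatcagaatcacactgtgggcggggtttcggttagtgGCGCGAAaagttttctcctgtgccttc
Mcm6 (chr1:128359706-128359955, minus strand): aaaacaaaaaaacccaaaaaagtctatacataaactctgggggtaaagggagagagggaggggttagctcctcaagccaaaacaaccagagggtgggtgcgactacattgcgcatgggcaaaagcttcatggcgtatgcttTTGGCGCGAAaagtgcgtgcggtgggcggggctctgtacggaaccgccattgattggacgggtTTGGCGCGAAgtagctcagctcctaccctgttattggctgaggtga
Gins3 (chr8:95633309-95633558, plus strand): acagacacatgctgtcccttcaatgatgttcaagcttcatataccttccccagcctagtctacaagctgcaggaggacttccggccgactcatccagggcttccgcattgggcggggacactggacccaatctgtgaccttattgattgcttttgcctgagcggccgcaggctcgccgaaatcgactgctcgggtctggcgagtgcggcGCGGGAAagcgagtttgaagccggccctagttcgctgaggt
Pola1 (chrX:93632156-93632405, minus strand): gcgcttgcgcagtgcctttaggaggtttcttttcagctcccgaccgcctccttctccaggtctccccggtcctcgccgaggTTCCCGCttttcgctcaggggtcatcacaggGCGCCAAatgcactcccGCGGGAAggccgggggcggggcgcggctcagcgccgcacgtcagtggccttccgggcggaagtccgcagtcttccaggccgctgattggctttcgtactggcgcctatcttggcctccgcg
Rfc3 (chr5:151651209-151651458, minus strand): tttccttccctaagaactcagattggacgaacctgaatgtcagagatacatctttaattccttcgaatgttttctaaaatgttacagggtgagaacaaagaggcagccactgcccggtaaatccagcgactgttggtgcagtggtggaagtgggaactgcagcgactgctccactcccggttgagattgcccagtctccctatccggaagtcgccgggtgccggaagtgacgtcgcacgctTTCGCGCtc
Fen1 (chr19:10203922-10204171, minus strand): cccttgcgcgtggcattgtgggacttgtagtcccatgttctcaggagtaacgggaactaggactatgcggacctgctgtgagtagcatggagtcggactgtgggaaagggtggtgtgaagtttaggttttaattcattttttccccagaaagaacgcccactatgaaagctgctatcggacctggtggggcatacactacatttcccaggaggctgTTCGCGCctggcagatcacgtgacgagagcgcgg
Rrm1 (chr7:102441445-102441694, plus strand): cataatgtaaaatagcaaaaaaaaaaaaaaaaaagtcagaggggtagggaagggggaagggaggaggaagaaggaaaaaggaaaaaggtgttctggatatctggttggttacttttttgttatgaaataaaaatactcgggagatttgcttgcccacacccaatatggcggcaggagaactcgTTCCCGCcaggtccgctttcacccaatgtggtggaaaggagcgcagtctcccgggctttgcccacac
Chaf1b (chr16:93883651-93883900, plus strand): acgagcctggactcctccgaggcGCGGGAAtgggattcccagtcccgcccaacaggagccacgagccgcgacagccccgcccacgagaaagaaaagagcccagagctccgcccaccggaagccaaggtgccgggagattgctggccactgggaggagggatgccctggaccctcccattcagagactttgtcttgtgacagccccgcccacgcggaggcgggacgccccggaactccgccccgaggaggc
The Mcm6 promoter holds 4 matches in 2 places, because each place reads as a motif on either strand. The Pola1 promoter holds 3 matches and each of the others shown 1. Fen1 has another listed promoter, chr19:10204394-10204643, which holds no match and is not shown. The match of Rfc3 ends 2 bases before the listed start, whereas that of Chaf1b lies 220 bases before it.

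Values are log2 signals as deposited, so that a difference of 1 is a doubling. Arrays have no read depth, and their number limits the precision. Median signals over all genes lay between 7.57 and 7.64 on the 8 arrays. Each of the 46 genes stood above 5.83 on every array, a level taken from Y-linked genes. Kdm5d, Uty and Eif2s3y, which are on the Y chromosome, were high on wild-type arrays 1 to 3 and Bcl6 cKO array 1 and low on the other 4 arrays, where 5.83 was their highest reading. Xist, a gene of the X chromosome, showed the reverse, with 12.44 to 12.59 on those 4 arrays and 5.72 to 6.28 on the other 4. The groups were thus unequal in Y-linked signal and in Xist, with 3 wild-type arrays and 1 Bcl6 cKO array high in Y-linked signal. Wild-type array 4 stood apart, since over all genes the interquartile range of deviations from the gene means was 0.19 on it and 0.10 to 0.13 on the other 7 arrays. All 8 measured T cell markers were above the level of 5.83 given above, Cd4 and the CD3 chains included, and their mean ran from 12.44 to 12.65 over the arrays. Some markers of other cells had means over the 8 arrays above it as well: 4 of 5 B cell genes, 1 of 4 NK cell genes (Eomes) and 6 of 8 myeloid genes. So did 2 of 2 CD8 T cell genes, 4 of 4 regulatory T cell genes and 1 of 1 erythroid gene. The level comes from Y-linked genes, so a mean above it does not show that a marker was expressed. Bcl6 itself read 8.47, 8.33, 8.56 and 8.10 in wild type and 9.05, 8.67, 8.83 and 8.40 in Bcl6 cKO. Those values overlapped and were not lower on the arrays labelled knockout (exact permutation test over the 8 arrays, two-sided p = 0.0857; no split can give less than 0.0286). Which exons the deletion removes is not stated, so this probe set does not check the genotype.

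None of the 46 genes differed between the genotypes at an adjusted p of 0.05 in limma, the linear model fitted here over all genes. Over all 19938 genes 0.105% were called higher (21) and 0.115% lower (23) in Bcl6 cKO. That split was 19 and 13 with arrays centred on their medians and 22 and 14 after quantile normalization. Most differences of the members lay on 1 side. In 44 of 46 the mean was higher in Bcl6 cKO, against 52.1% of all genes. The median log2 difference was 0.19, with a range from -0.04 for Rpa1 to 0.49 for Ccne2, against a median of 0.00 over all genes. An unadjusted p under 0.05 was found for 13 members, all higher, which is 28.3% of them against 4.67% of all genes higher and 6.17% lower at that level. The members share an expression program and are not independent of each other, so these shares are a description of the list. Only Tipin had groups that did not overlap, 1 of 46, against 2.33% of all genes with groups apart in that direction. For all 46 genes the difference between the group means was smaller than the range within the more variable group. That includes Tipin, whose groups did not overlap (difference 0.29, wild-type range 0.41). The share of all genes for which this holds was not computed.

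The map of deviations shows the same genes array by array. On Bcl6 cKO arrays 3 and 4 all 46 genes stood above their own mean over the 8 arrays, by a median of 0.28 and 0.18. On wild-type array 4 only 2 genes did, Rpa1 and E2f2, and the median deviation was -0.28. Bcl6 cKO array 2 lay on the low side too, with 3 genes above their mean and a median of -0.12. Bcl6 cKO array 1 had a median of 0.02, near those of wild-type arrays 1 to 3 (-0.03, 0.02 and -0.03). The 2 highest of the 8 values were those of Bcl6 cKO arrays 3 and 4 in 38 genes (82.6%, against 7.79% of all genes). The lowest value was that of wild-type array 4 in 40 genes (87%, against 21.8% of all genes). These arrays were picked after the members' values were seen, so both shares only describe the layout. The array medians averaged -0.08 ± 0.14 in wild type and 0.09 ± 0.17 in Bcl6 cKO (SD, n = 4 each). The spread between arrays of a group was of the size of the difference between the groups.

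**Figure D1:**
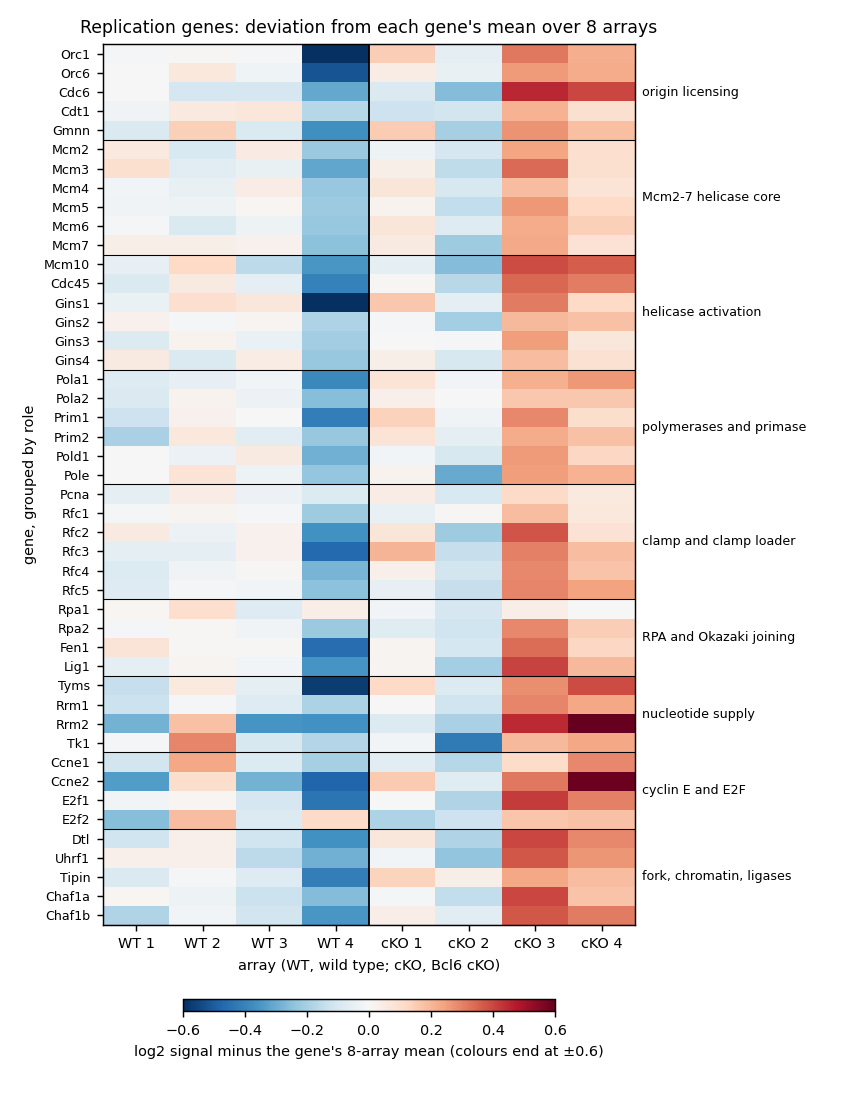
Log2 signal of the 46 replication genes (rows, grouped by role) on the 8 arrays (columns), each as the deviation from that gene's mean over the 8 arrays. Bcl6 cKO arrays 3 and 4 are above the mean in all 46 genes and wild-type array 4 in 2, while Bcl6 cKO array 2 is above it in 3 genes; values beyond ±0.6 take the end colour.

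The size of the lean towards Bcl6 cKO depended on which arrays were in the fit. Without wild-type array 4 the median difference of the members was 0.12 and 4 of them had an unadjusted p under 0.05. Without Bcl6 cKO array 3 the median was 0.11 with 4 such genes, and without Bcl6 cKO array 4 it was 0.16 with 5. In the other direction, without Bcl6 cKO array 2 the median was 0.26 and 31 genes had an unadjusted p under 0.05. No member passed the adjusted threshold in any of these fits, and between 42 and 45 of the 46 had a mean above wild type.

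Licensing genes came first in the order of events. Orc1, the largest subunit of the origin recognition complex and the one that comes and goes with the cell cycle, read 9.19, 9.21, 9.19 and 8.60 on wild-type arrays 1 to 4 and 9.35, 9.15, 9.52 and 9.42 on Bcl6 cKO arrays 1 to 4. Wild-type arrays 1 to 3 were almost level, wild-type array 4 was far below them and Bcl6 cKO array 2 just below them, so the groups overlapped. The log2 difference was 0.31 (SE 0.13, 95% confidence interval 0.02 to 0.61, adjusted p = 0.424). Orc6, the smallest subunit, showed the same layout, with 10.61, 10.67, 10.58 and 10.09 on wild-type arrays 1 to 4 and 10.65, 10.56, 10.86 and 10.83 on Bcl6 cKO arrays 1 to 4. Its log2 difference was 0.24 (SE 0.12, 95% confidence interval -0.03 to 0.51, adjusted p = 0.532). Cdc6, which loads the helicase together with Cdt1, was high on the same knockout arrays (9.16 and 9.11), against 8.40 to 8.71 on the other 6. Cdt1 itself had a log2 difference of 0.04 and Gmnn, its inhibitor, one of 0.20. None of the 5 passed, and their median difference was 0.24.

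The 6 subunits of the Mcm2-7 helicase ring had small differences, all above 0. Their log2 differences ran from 0.08 for Mcm7 to 0.18 for Mcm6, with a median of 0.13 and adjusted p-values of 0.41 or more. Mcm6 read 11.95, 11.87, 11.93 and 11.73 on wild-type arrays 1 to 4 and 12.03, 11.88, 12.18 and 12.10 on Bcl6 cKO arrays 1 to 4. As with Orc1, wild-type array 4 was lowest and Bcl6 cKO array 3 highest, and the value of Bcl6 cKO array 2 lay among those of wild type. Its log2 difference was 0.18 (SE 0.07, 95% confidence interval 0.01 to 0.34, adjusted p = 0.41). Mcm4 was 11.84 ± 0.12 for wild type against 11.96 ± 0.12 for Bcl6 cKO (SD, n = 4 each) and Mcm3 was 11.15 ± 0.17 for wild type against 11.31 ± 0.20 for Bcl6 cKO (SD, n = 4 each), with log2 differences of 0.12 and 0.16. Wild-type array 4 was the lowest of the 8 arrays for all 6 subunits, and Bcl6 cKO array 3 was the highest. Bcl6 cKO array 4 came next for each, level with wild-type array 1 for Mcm3.

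Factors that switch the helicase on were lowest on wild-type array 4 in 5 of 6 genes, the exception being Gins2, which was lowest on Bcl6 cKO array 2 (9.79, against 9.81 on wild-type array 4). Gins1, a subunit of the GINS complex, read 9.74, 9.88, 9.85 and 9.12 on wild-type arrays 1 to 4 and 9.94, 9.72, 10.09 and 9.90 on Bcl6 cKO arrays 1 to 4. Wild-type array 4 stood far below the other 7 arrays, while Bcl6 cKO array 2 was just below the rest of wild type. The log2 difference of 0.27 (SE 0.15, 95% confidence interval -0.07 to 0.60, adjusted p = 0.581) did not pass. Cdc45, which joins GINS and Mcm2-7 in the active helicase, read 9.53, 9.67, 9.56 and 9.21 on wild-type arrays 1 to 4 and 9.62, 9.45, 9.96 and 9.92 on Bcl6 cKO arrays 1 to 4, a difference of 0.25 (adjusted p = 0.532) whose groups overlapped. Gins3 was 8.94 ± 0.10 for wild type against 9.10 ± 0.12 for Bcl6 cKO (SD, n = 4 each), with a difference of 0.16 (adjusted p = 0.475). Mcm10, Gins2 and Gins4 had differences of 0.22, 0.08 and 0.11.

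Polymerase alpha and its primase, which start each new strand, held 4 of the 13 genes with an unadjusted p under 0.05. Pola1, the catalytic subunit, read 9.57, 9.60, 9.63 and 9.26 on wild-type arrays 1 to 4 and 9.73, 9.63, 9.86 and 9.91 on Bcl6 cKO arrays 1 to 4. Here Bcl6 cKO array 2 tied with wild-type array 3, and every other knockout value was above all wild-type values. The log2 difference was 0.27 (SE 0.09, 95% confidence interval 0.07 to 0.47, adjusted p = 0.302). Prim2, the large primase subunit, read 10.22, 10.48, 10.35 and 10.19 on wild-type arrays 1 to 4 and 10.50, 10.36, 10.64 and 10.59 on Bcl6 cKO arrays 1 to 4; wild-type array 2 was in the range of the knockout arrays. Its difference was 0.21 (SE 0.08, 95% confidence interval 0.04 to 0.39, adjusted p = 0.362). Pola2 had a difference of 0.18 (adjusted p = 0.374) and Prim1, the catalytic primase subunit, one of 0.26 (adjusted p = 0.376). The catalytic subunits of the polymerases that extend the strands, Pold1 and Pole, had differences of 0.13 and 0.09. Pole had its lowest value on Bcl6 cKO array 2 (10.28), under wild-type array 4 (10.35).

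The sliding clamp gene Pcna varied least of its group, with 13.24 ± 0.06 for wild type against 13.30 ± 0.09 for Bcl6 cKO (SD, n = 4 each) and a range of 0.21 over the 8 arrays. It is read by 2 clusters whose values differ by no more than 0.01 on any array, and both gave a difference of 0.06. Among the loader subunits Rfc3 read 9.70, 9.70, 9.78 and 9.29 on wild-type arrays 1 to 4 and 9.96, 9.62, 10.06 and 9.94 on Bcl6 cKO arrays 1 to 4. Its wild-type array 4 was again far below the rest, and Bcl6 cKO array 2 was below wild-type arrays 1 to 3. The log2 difference was 0.28 (SE 0.12, 95% confidence interval 0.02 to 0.54, adjusted p = 0.422). Rfc4 had a difference of 0.19 (SE 0.09, 95% confidence interval -0.02 to 0.39, adjusted p = 0.51) and Rfc5 of 0.18 (SE 0.10, 95% confidence interval -0.05 to 0.40, adjusted p = 0.576). Rfc1 and Rfc2 had 0.11 and 0.16.

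Proteins that coat single-stranded DNA and join Okazaki fragments, the short pieces of the lagging strand, held an exception. Rpa1, the large subunit of the coating complex RPA, read 10.50, 10.59, 10.41 and 10.53 on wild-type arrays 1 to 4 and 10.47, 10.39, 10.53 and 10.49 on Bcl6 cKO arrays 1 to 4. Wild-type arrays 2 and 4 were its highest values together with Bcl6 cKO array 3, and the whole range was 0.20. The log2 difference was -0.04 (SE 0.06, 95% confidence interval -0.16 to 0.09, adjusted p = 0.882). Rpa2, a smaller subunit of the same complex, did follow the arrays, with 9.78 on wild-type array 4 and 10.29 on Bcl6 cKO array 3, and a difference of 0.12. The flap nuclease gene Fen1 read 9.84, 9.77, 9.77 and 9.31 on wild-type arrays 1 to 4 and 9.78, 9.66, 10.10 and 9.89 on Bcl6 cKO arrays 1 to 4. It was lowest on wild-type array 4 and next on Bcl6 cKO array 2, with the groups overlapping. Its difference was 0.19 (SE 0.12, 95% confidence interval -0.09 to 0.46, adjusted p = 0.653). The ligase gene Lig1 was 10.44 ± 0.17 for wild type against 10.65 ± 0.26 for Bcl6 cKO (SD, n = 4 each), a difference of 0.21 (adjusted p = 0.608).

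**Figure D2:**
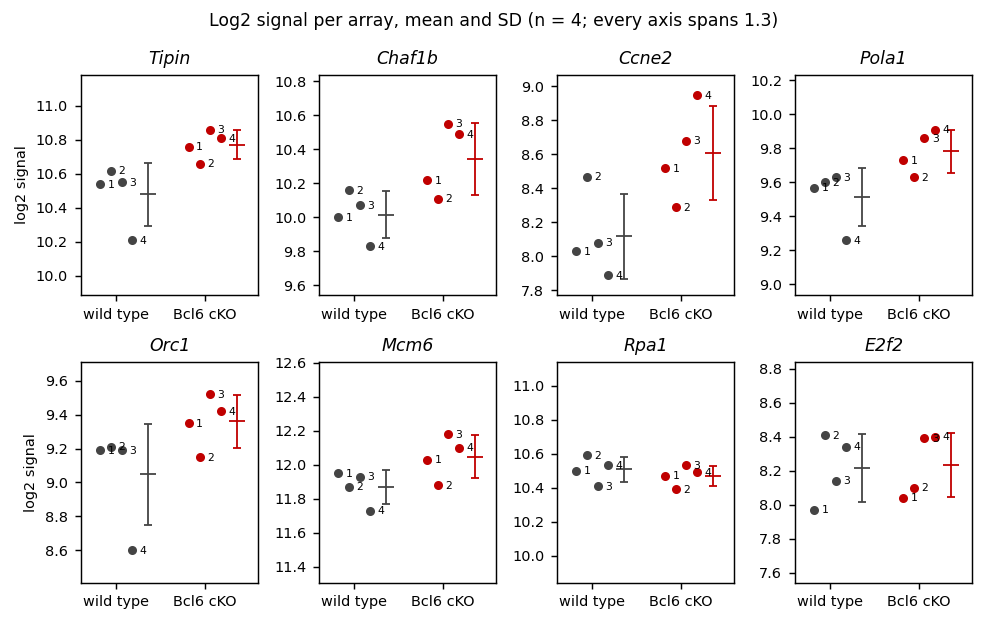
Log2 signal (vertical axes, each spanning 1.3 log2 units) of 8 members on the 4 wild-type and 4 Bcl6 cKO arrays; points carry the replicate number, and the bar beside them is the mean with its SD. Tipin is the 1 gene whose groups do not overlap, wild-type array 4 is the lowest point in every panel except Rpa1 and E2f2, and the differences of those 2 genes are -0.04 and 0.02.

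Nucleotide supply genes were split. Tyms, thymidylate synthase, read 9.79, 9.99, 9.87 and 9.36 on wild-type arrays 1 to 4 and 10.05, 9.85, 10.21 and 10.32 on Bcl6 cKO arrays 1 to 4. The knockout values were above wild-type arrays 1, 3 and 4 with 1 exception, Bcl6 cKO array 2, and wild-type array 2 lay inside their range. Its difference was 0.36 (SE 0.14, 95% confidence interval 0.06 to 0.65, adjusted p = 0.369). For Rrm1, the large subunit of ribonucleotide reductase, the means were 11.48 ± 0.08 for wild type against 11.68 ± 0.19 for Bcl6 cKO (SD, n = 4 each), and the difference was 0.20 (adjusted p = 0.441). The gene of the small subunit, Rrm2, which is made mainly in S phase, had a wider spread: it read 9.66, 10.12, 9.59 and 9.58 on wild-type arrays 1 to 4 and 9.86, 9.75, 10.39 and 10.59 on Bcl6 cKO arrays 1 to 4. Bcl6 cKO arrays 3 and 4 were above the other 6, yet Bcl6 cKO arrays 1 and 2 lay inside the wild-type range. The difference of 0.41 (SE 0.19, 95% confidence interval -0.0009 to 0.82, adjusted p = 0.462) did not pass. Tk1, the salvage thymidine kinase, read 9.51, 9.81, 9.42 and 9.34 on wild-type arrays 1 to 4 and 9.50, 9.09, 9.71 and 9.75 on Bcl6 cKO arrays 1 to 4. It was highest on wild-type array 2 and lowest on Bcl6 cKO array 2, and its difference of -0.01 (SE 0.14, 95% confidence interval -0.33 to 0.31, adjusted p = 0.992) changed sign without either of those arrays. A second, dimmer cluster of Tk1 had a difference of -0.07.

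Cyclin E2 (Ccne2), which activates the kinase Cdk2 at the G1/S boundary, had the largest log2 difference of the 46 genes. It read 8.03, 8.47, 8.08 and 7.89 on wild-type arrays 1 to 4 and 8.52, 8.29, 8.68 and 8.95 on Bcl6 cKO arrays 1 to 4. Wild-type array 2 was above Bcl6 cKO array 2, and all other knockout values were above all wild-type values. The log2 difference was 0.49 (SE 0.15, 95% confidence interval 0.17 to 0.82, adjusted p = 0.233), a 1.41-fold difference. Ccne1, its relative, had 0.08 (adjusted p = 0.877). E2f1, the activator that drives its own gene along with replication genes, read 10.17, 10.20, 10.09 and 9.75 on wild-type arrays 1 to 4 and 10.19, 10.01, 10.61 and 10.49 on Bcl6 cKO arrays 1 to 4. Bcl6 cKO arrays 1 and 2 were within the wild-type range, and the difference was 0.27 (SE 0.14, 95% confidence interval -0.03 to 0.57, adjusted p = 0.52). E2f2, another activator, read 7.97, 8.41, 8.14 and 8.34 on wild-type arrays 1 to 4 and 8.04, 8.10, 8.39 and 8.40 on Bcl6 cKO arrays 1 to 4. Unlike E2f1 it was not low on wild-type array 4, where it had its second highest wild-type value, and its difference was 0.02 (SE 0.11, 95% confidence interval -0.23 to 0.26, adjusted p = 0.98).

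Genes of the fork and of chromatin behind it held 3 of the 13 genes with an unadjusted p under 0.05. Tipin, which with Timeless protects stalled forks, read 10.54, 10.62, 10.55 and 10.21 on wild-type arrays 1 to 4 and 10.76, 10.66, 10.86 and 10.81 on Bcl6 cKO arrays 1 to 4. Each knockout value was above each wild-type value, though the gap between Bcl6 cKO array 2 and wild-type array 2 was narrow. The log2 difference was 0.29 (SE 0.09, 95% confidence interval 0.10 to 0.49, adjusted p = 0.235). Chaf1b, a subunit of the chromatin assembly factor that puts histones onto new DNA, read 10.00, 10.16, 10.07 and 9.83 on wild-type arrays 1 to 4 and 10.22, 10.11, 10.55 and 10.49 on Bcl6 cKO arrays 1 to 4. Only Bcl6 cKO array 2 and wild-type array 2 overlapped. Its difference was 0.33 (SE 0.10, 95% confidence interval 0.10 to 0.56, adjusted p = 0.268), and that of Chaf1a, its partner subunit, was 0.21. Dtl, which directs the destruction of Cdt1 in S phase, had a difference of 0.29 (adjusted p = 0.42), and Uhrf1, which carries DNA methylation over to the new strand, one of 0.19 (adjusted p = 0.654).

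Some members lie on the chromosome of Bcl6, where sequence of the targeted strain can travel with the deletion. In RefSeq, Mcm4, Cdc45, Rfc4 and Chaf1b are on chromosome 16, as is Bcl6, with 132, 65, 8 and 378 tested genes between them and it. The other 42 members had a median difference of 0.18, with 40 above wild type, close to the values with those 4 included. Linkage as a part of these 4 differences was not tested.

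**Figure D3:**
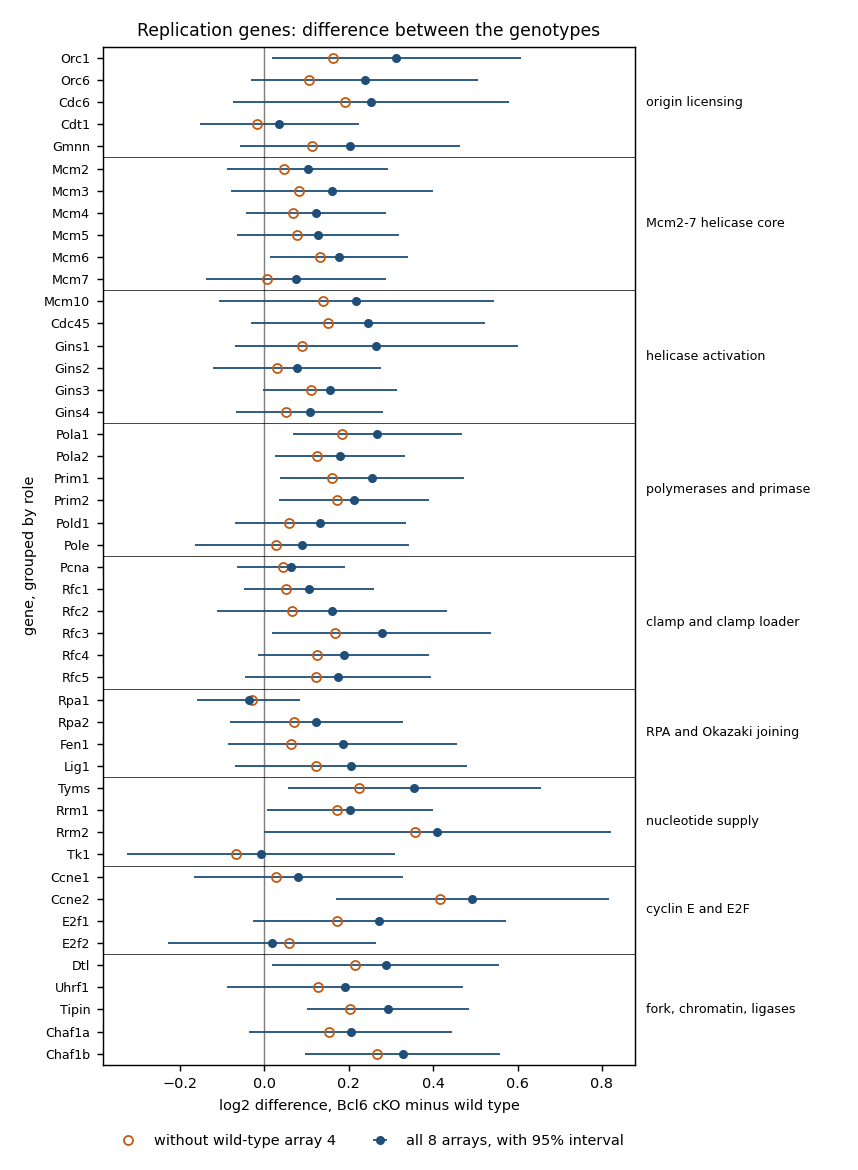
Log2 difference of each of the 46 genes, Bcl6 cKO minus wild type, grouped by role (filled points, all 8 arrays, with the 95% confidence interval of the limma fit; open points, without wild-type array 4). In all, 44 filled points lie above 0 and the intervals of 13 genes lie wholly above it, and without wild-type array 4 the median moves from 0.19 to 0.12.

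Other genes of the same machinery leaned the same way with less uniformity. Of 76 other replication genes measured, 59 were above wild type with a median log2 difference of 0.13, and none passed (0.105% of all genes were called higher and 0.115% lower). Unadjusted p-values under 0.05 were found for 21 higher (27.6%) and 4 lower genes, against 4.67% and 6.17% of all genes. Groups did not overlap in 8 genes that were higher and 2 that were lower, against 2.33% and 3.64% of all genes. Without wild-type array 4 the median was 0.06, and without Bcl6 cKO array 3 it was 0.08. By role, 14 of 17 origin and helicase genes were above wild type, as were 13 of 15 polymerase and loader genes, 12 of 13 fork and chromatin genes, 5 of 9 nucleotide genes and 15 of 22 regulators of G1/S.

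Dna2, a nuclease and helicase of Okazaki fragment processing, had the smallest p of these 76 genes. It read 8.77, 9.04, 8.91 and 8.64 on wild-type arrays 1 to 4 and 9.09, 9.26, 9.55 and 9.53 on Bcl6 cKO arrays 1 to 4. All knockout values were above all wild-type values, and the log2 difference was 0.52 (SE 0.11, 95% confidence interval 0.27 to 0.77, adjusted p = 0.117). It passed in 1 of the fits that leave out an array, the one without Bcl6 cKO array 1 (log2 difference 0.61, adjusted p = 0.0422). Over all genes that fit called 39 higher and 100 lower, against 21 and 23 in the fit of all arrays. Both counts were the highest among the fits that leave out an array, so the threshold was passed more readily there. Hells, a chromatin remodeler of the replicating cell, read 10.50, 10.59, 10.59 and 10.33 on wild-type arrays 1 to 4 and 10.88, 10.65, 11.02 and 10.83 on Bcl6 cKO arrays 1 to 4; its groups were separate as well, and the difference was 0.34 (SE 0.09, 95% confidence interval 0.15 to 0.53, adjusted p = 0.159). Orc2 (0.22), Orc4 (0.14) and the histone chaperone gene Nasp (0.22) also had separate groups, with adjusted p-values of 0.174, 0.374 and 0.36. For Orc2 and Orc4, Bcl6 cKO array 2 was not the lowest knockout array, unlike in most members. Atad5, which unloads the clamp, had a difference of 0.28, the serine hydroxymethyltransferase gene Shmt1 of 0.25 and the dUTPase gene Dut of 0.21, all with overlapping groups.

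The G1/S regulators with the smallest p both encode brakes on S phase entry, and both had lower means in Bcl6 cKO, though neither passed. Rbl2 encodes p130, a retinoblastoma relative that represses E2F targets in resting cells, and read 9.96, 10.13, 10.06 and 10.10 on wild-type arrays 1 to 4 and 9.93, 9.89, 9.77 and 9.70 on Bcl6 cKO arrays 1 to 4. Every knockout value was below every wild-type value, and the log2 difference was -0.24 (SE 0.06, 95% confidence interval -0.38 to -0.10, adjusted p = 0.188). Cdkn1b encodes the Cdk2 inhibitor p27 and read 10.41, 10.79, 10.48 and 10.92 on wild-type arrays 1 to 4 and 10.46, 10.52, 10.02 and 10.05 on Bcl6 cKO arrays 1 to 4. It was highest on wild-type array 4 and lowest on Bcl6 cKO arrays 3 and 4, the mirror image of the replication genes. The groups overlapped, and the difference was -0.39 (SE 0.14, 95% confidence interval -0.70 to -0.07, adjusted p = 0.347).

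Genes of later cell cycle phases were set beside these arrays. The 24 measured mitosis genes had a median log2 difference of 0.23, with 23 above wild type and none past the threshold; without 1 array the median ranged from 0.157 (wild-type array 4) to 0.345 (wild-type array 2). Their median deviation was -0.33 on wild-type array 4 and 0.26 and 0.33 on Bcl6 cKO arrays 3 and 4. Wild-type array 2 was at 0.14 for mitosis genes and at 0.02 for replication genes. Histone genes of the replication-dependent clusters were taken by name, without a check that each increases in S phase. Such transcripts are known to increase in S phase, and the list had another layout. The 30 genes measured were at 0.05 on wild-type array 4 and at 0.01 on Bcl6 cKO array 3, and only Bcl6 cKO array 4 was high, at 0.13. Histone genes are near-identical copies, so a cluster may read more than 1 of them. The list also holds a pseudogene, H2bu1-ps. H2ac8 and H3c7 were dim, with wild-type means of 4.74 and 5.21. For the histone genes the median difference was 0.07, with 21 of 30 above wild type and none past the threshold.

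**Figure D4:**
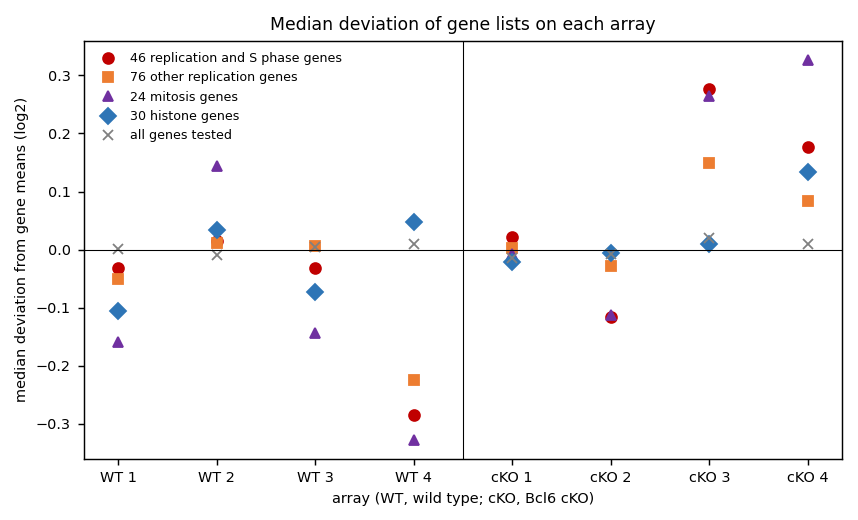
Median deviation from gene means (log2, vertical axis) on each array (horizontal axis) for the 46 members, 76 other replication genes, 24 mitosis genes, 30 histone genes and all genes tested. Replication and mitosis genes are lowest on wild-type array 4 and highest on Bcl6 cKO arrays 3 and 4, whereas all genes stay between -0.02 and 0.02 and histone genes are not low on wild-type array 4.

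Markers of T cells and of activation were set beside these arrays. Means of the 8 activation markers ran from 11.93 to 12.18 in wild type, lowest on array 4. In Bcl6 cKO they ran from 12.09 to 12.23, highest on array 2, where replication genes were low. By median deviation from the gene means, the measure used above, the activation markers were lowest on wild-type array 4 (-0.139). They were then highest on Bcl6 cKO array 4 (0.136), followed by Bcl6 cKO array 2 (0.093). Of these 8 genes 5 had a higher mean in Bcl6 cKO and none passed, with differences from -0.32 for Nr4a1 to 0.82 for Cd44 (adjusted p = 0.691 and 0.178). The 8 T cell markers had their lowest mean, 12.44, on Bcl6 cKO array 2. Means over the listed B cell markers (5 of 6 measured) stayed between 6.47 and 6.59, and those of 8 myeloid markers between 6.22 and 6.49. Of the 2 CD8 T cell markers, Cd8b1 averaged 11.04 for wild type against 10.57 for Bcl6 cKO, with groups that did not overlap (adjusted p = 0.0541), and Cd8a had a difference of -0.02. Foxp3, which defines regulatory T cells, averaged 9.72 against 9.23 (adjusted p = 0.2), and 1 of the 4 markers of that type had a higher mean in Bcl6 cKO. In bulk RNA more cells in S phase and more RNA per cell cannot be told apart, and their part in the layout was not tested.

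Members were also compared within arrays of like Y-linked signal. Among arrays with high Y-linked signal, wild-type arrays 1 to 3 against Bcl6 cKO array 1, the median log2 difference of the members was 0.04, with 32 of 46 above wild type. Among arrays with low signal, wild-type array 4 against Bcl6 cKO arrays 2 to 4, it was 0.40, with 44 of 46 above. That class has wild-type array 4 as its whole wild-type arm, so its values restate how low the members were on that array. No member passed in either class. Over all genes 0.16% were called higher and 0.0552% lower in the low class, and 0% in the high class, where 852 genes had an unadjusted p under 0.05. The difference between the classes, tested as an interaction, was positive in 45 of 46 members (10525 of 19938 genes overall) with a median of 0.37. It passed for none of them (smallest adjusted p = 0.344) and for 0.00502% of all genes. An unadjusted p under 0.05 was found for 10 of 46 members and for 2360 of the 19938 genes. Each class holds 1 lone array of a genotype, assumed to vary like the rest, so the signal and that array cannot be told apart. With Y-linked signal as a term in the fit of all 8 arrays, the median of the members was 0.22, with 44 above wild type and none called (0.0502% of all genes were).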

How the data were processed

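Each of the 8 samples, 100 ng RNA per the labels' protocols, went onto its own array. Deposited were log2 values, 1 per transcript cluster and array. The submitters' processing notes name RMA and Partek without versions or settings. RMA as usually run brings all arrays to a like distribution, so a change shared by most genes would not show. Of 35556 clusters, 21789 have 1 gene symbol, 1621 several and 12146 none in the platform annotation used. The cluster with the highest mean was kept per gene (19938 genes; 2 of the 46 members have several clusters).

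Differences were fitted in R 4.3.3 using lmFit and eBayes of limma 3.58.1, both groups together without covariates, Benjamini-Hochberg over all genes, threshold 0.05, no filter. The step was tested on simulated data. Differences are Bcl6 cKO minus wild type. Members and lists were chosen with earlier results of these data known, so no list was tested as a set. Named members are the 3 with the smallest p per role (2 in roles of 4 or 5), those past the threshold and the 3 with the lowest differences (2 of them below 0); of other replication genes, the 2 with the smallest p per role. Values of Cdc6, Gins2, Pole, Rpa2, Pcna and Rrm2 were added after they were seen. Other members are given by their differences, apart from the values flagged below. Unmatched list entries were not analysed here (3 of 79 other replication genes, 1 of 25 mitosis genes). Classes of Y-linked signal were split at the largest gap. Alternatives were moderation, array weights, centring, quantile normalization, filters, mean of clusters, replicate block, Y-linked signal and odd or even number as terms, threshold 0.1 and leaving out each array.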

Additional observations from a re-analysis of the deposited data

Results flagged for a closer look

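Wild-type array 4 lay far below the other 3 wild-type arrays in 8 of the 46 members, by Dixon's ratio of the gap to the range. The values on it were 8.60 for Orc1, 10.09 for Orc6, 11.83 for Mcm7, 9.26 for Pola1, 10.25 for Rfc1, 9.29 for Rfc3, 9.78 for Rpa2 and 9.31 for Fen1. The median deviation of the members on that array, -0.284, stood apart in the same way. For Rrm2 it was wild-type array 2, at 10.12, that lay above the other wild-type arrays. These are 10 of 116 groups checked, and chance alone gives about 1 in 20. The genes vary together and are not independent checks.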

How the results depend on the processing

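No member was called in any of the 22 alternatives, and between 32 and 45 of the 46 were above wild type. The median difference was 0.398 within arrays of low Y-linked signal and 0.035 within those of high signal; without 1 array it ranged from 0.106 to 0.257, and elsewhere from 0.164 to 0.222. Among other replication genes 0 to 1 were called higher without 1 array. Counts over all genes (21 higher, 23 lower) moved by over 1.5 times: 42 higher and 90 lower at an adjusted p of 0.1, 33 and 60 with odd or even number as a term, 5 and 5 with Y-linked signal, alone or with odd or even number, 32 and 11 within low and 0 and 0 within high Y-linked signal (limma, 3927 and 852 unadjusted). Lower calls alone moved to 61 with trend and robust moderation, 51 with array weights, 13 after centring, 14 after quantile normalization, and 42 and 52 with the 30th percentile and median filters. Without 1 array, 5 to 39 were higher and 5 to 100 lower, with the highest of both counts without Bcl6 cKO array 1. Those fits hold fewer samples, and each Y-linked class compares fewer arrays. The cause of these moves was not tested.

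Within high Y-linked signal 12 members turned from above to below wild type, among them Cdc6 (-0.023), Mcm10 (-0.03), Pold1 (-0.023), Cdt1 (-0.157) and Ccne1 (-0.083). In the other alternatives 1 or 2 members turned or none did: Tk1, E2f2, Cdt1 (without wild-type array 4 or Bcl6 cKO array 3) and Ccne1 (without Bcl6 cKO array 4). Tk1 was at 0.011 with array weights, 0.048 with Y-linked signal, 0.058 with odd or even number added and 0.177 within low signal, and without 1 array from -0.087 to 0.133. E2f2 was at -0.088, -0.052 and -0.043 in the last 3 of these, -0.133 within high signal, and without 1 array from -0.064 to 0.083. Rfc5 and Fen1 were at -0.013 within high signal. Same-numbered arrays of the 2 genotypes had correlations of deviations, across genes, of 0.073, 0.206, 0.203 and 0.205. In 3 of the 4 the value was above all 12 differently numbered pairs (highest 0.186), a hint of pairing from the data. As 1 pair was under 0.1 and the labels tie no arrays together, the numbers were not used as pairs. With the replicate block 11 members had an unadjusted p under 0.05, none was called, and 15 genes were higher and 20 lower over all genes. At 4 arrays a group, the median standard error of a member's difference was 0.11.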
